A study of Mus musculus with 16 samples.

Results

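The genes described here encode the collagens, laminins, matrix proteases with their inhibitors, and the transforming growth factor beta (TGF-beta) system of mouse kidney. They were chosen by a rule on symbols: a numbered collagen, laminin, Mmp, Timp, Adamts, Tgfb or Tgfbr gene, or Fn1, Sparc, Dcn, Bgn, Postn, Nid2 or Lox. These members and the other gene lists were chosen with earlier results of these data known. The rule found 113 of the 20355 probes of the array, for 69 of its 9930 named genes, and 67 of these genes could be tested. Lama3 and Mmp7 had too few values. Col4a3, Col4a4, Col4a5, Nid1, Hspg2, Tgfbr1, Ctgf, Lum and Fbn1 were not analysed here.

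Male mice of 15 weeks were studied: 4 labelled MFP2-/-, each with its own kidney RNA, and 5 wild-type animals, whose kidney RNA was combined into 1 pool. Every mutant RNA was set against that pool on cDNA arrays with 2 colours. The labels name no treatment. MFP2 is the peroxisomal multifunctional protein 2, made from Hsd17b4, which breaks down very long chain and branched fatty acids. Each mouse had 4 arrays, 2 with its RNA in the dye Cy5 and 2 with it in Cy3. The labels give the pool's strain as SWR/Ola Hsd and no background strain for the mutants, so strain and genotype cannot be told apart. They do not describe the allele. Wild-type spread was not measured, because the pool is 1 control sample. How precise each value can be is limited by the number of mice and arrays. All 4 mice share the pool, so a deviation of the pool would move their ratios the same way.

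All values are log2 ratios, read as mutant over pool, so a negative value means less RNA in the mutant kidney. The base and the direction were inferred, since the sources used here do not state them. Values under the other reading, Cy5 over Cy3 on every array, are called turned and are given beside some of the results. A gene given without a turned value can still change sign. Each array held 19737 to 20228 values, and no intensities were used, so levels and signal over background are unknown and kidney markers could not be checked as levels. Whole kidney was measured, so fewer cells of a type and less RNA per cell cannot be told apart. Hsd17b4 had 2 probes that disagreed, with -1.69, -1.50, -0.10 and -0.34 in mice 1 to 4 for the first and 0.02, 0.83, 0.34 and 0.52 for the second. Their mean was -0.24 ± 0.45 (SD, n = 4, limma adjusted p = 0.655), and the turned mean was 0.09. The sources used here do not say whether either probe lies in the deleted part of the gene.

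The kidney holds 2 kinds of collagen matrix. Fibrillar collagens, mainly types I and III with some type V, form the fibres of the interstitium between the tubules and around vessels, and they are made chiefly by fibroblasts. Basement membranes under the tubule cells and in the glomerulus are sheets of type IV collagen and laminin joined by nidogens. Matrix metalloproteinases (MMPs) and ADAMTS proteases cut proteins of the matrix. Tissue inhibitors of metalloproteinases (TIMPs) block the MMPs, among other proteases, and TGF-beta is a strong inducer of matrix genes in fibrosis.

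No member differed from the wild-type pool after adjustment over the array. In limma's test of the 4 mice against 0, 0 of 67 genes passed an adjusted p of 0.05, where 0 of all 16140 rows did (0%). Turned, 0 of 67 members and 12 of 16140 rows passed. The smallest adjusted p was 0.548 among the members and 0.327 among all rows. At an unadjusted p under 0.05 stood 6 of 67 members (8.96%), close to the 9.04% of all rows. Of these, 4 lay above 0 (Mmp8, Timp1, Col16a1 and Col14a1), beside a background of 5.83%, and 2 lay below 0 (Col3a1 and Mmp13), beside 3.21%. The median of the ratios was -0.02 over the members and 0.00 over all rows, with 26 members above 0 and 41 below. Of all 16140 rows, 8054 lay below 0, as did 4520 of the 9846 named genes tested. On the same side of 0 in all 4 mice lay 15 of the 65 members with a value in every mouse (23.1%), beside 19.4% of all rows. Of these, 9 members lay below 0 (13.8%), beside 9.42% of all rows: Col1a1, Col1a2, Col3a1, Col5a2, Col4a1, Lamc1, Lama4, Mmp13 and Adamts16. The other 6 members lay above 0 (9.23%), as did 1586 of 15856 rows: Dcn, Timp1, Col16a1, Mmp8, Tgfb3 and Lama5. These counts rest on the inferred direction. Turned, 11 of 65 members lay below 0 in all 4 mice (16.9%, beside 17.7% of all rows) and 3 above (4.62%, beside 13.6%). The turned means of Col1a1 and Col4a1 were 0.04 and 0.10, and those of Col1a2 and Lamc1 were -0.01 each. Turned, 12 of 67 members (17.9%) stood at an unadjusted p under 0.05, beside 20.2% of all rows, and 11 of the 12 lay below 0.

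**Figure D1:**
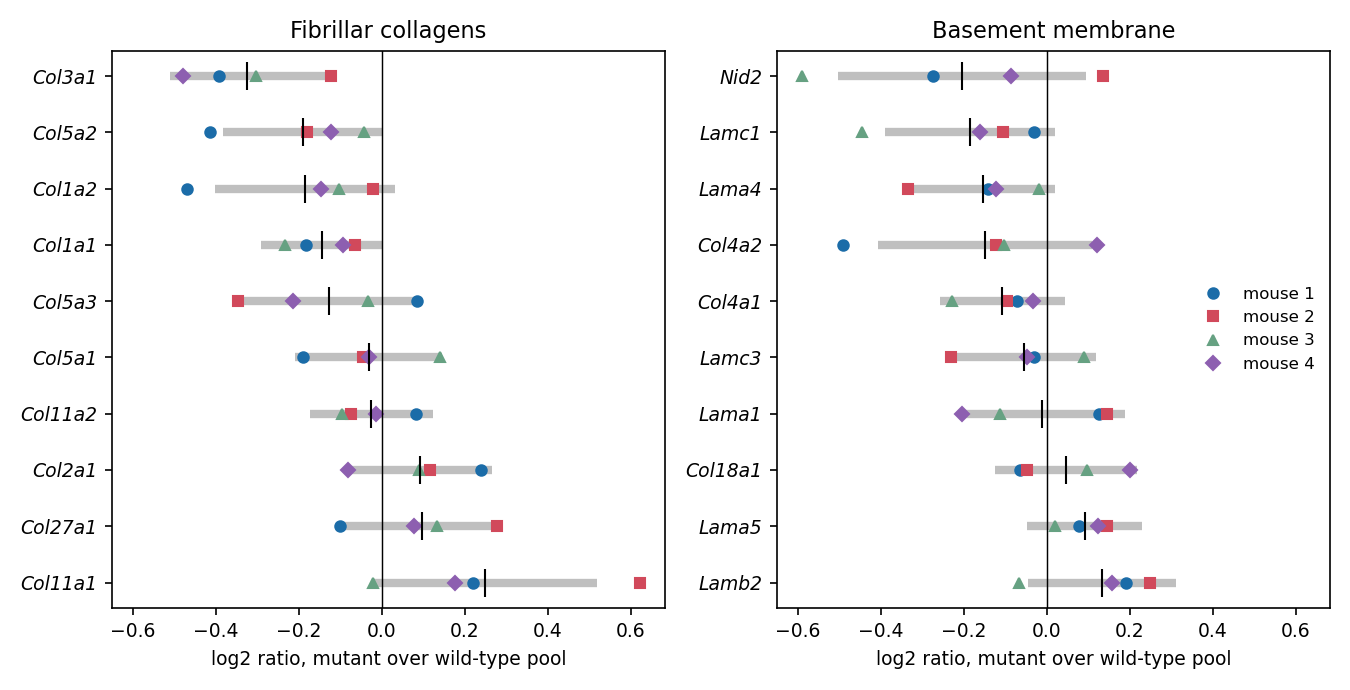
Log2 ratio of mutant over pool (horizontal axis) for each fibrillar collagen and basement membrane gene tested (rows), with 1 point per mouse, a tick at the mean and a grey band for the 95% interval. The interval of Col3a1, -0.51 to -0.14, lies below 0, and its 4 mice sit between -0.48 and -0.12.

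The fibrillar collagens had 7 of 10 genes below 0 and a median of -0.08, and none passed the test. Their median was -0.14, -0.06, -0.04 and -0.09 in mice 1 to 4, below 0 in each mouse. It was -0.04 without mouse 2, and the turned median was 0.02. The 4 genes that lay below 0 in every mouse were those of types I and III and the chain Col5a2. Col3a1 encodes the only chain of type III collagen. Its ratio was -0.39, -0.12, -0.30 and -0.48 in mice 1 to 4, and 15 of its 16 arrays lay below 0. The mean was -0.32 ± 0.15 (SD, n = 4), a 1.25-fold lower signal in mutant kidney with a 95% interval of -0.51 to -0.14 and a limma adjusted p of 0.548. It was below 0 in both dye orientations, at -0.36 with the mutant in Cy5 and -0.29 with the mutant in Cy3. The orientations differed within mice 2 and 4. Mouse 4 had -1.35 and -0.54 in Cy5 but -0.003 and -0.02 in Cy3, and mouse 2 had 0.01 and -0.02 in Cy5 but -0.30 and -0.19 in Cy3. Mice 1 and 3 had every array at -0.18 or lower. The lowest array stood at -1.35, in mouse 4, and taking the median of a mouse's arrays gave -0.24. The turned mean of Col3a1 was -0.04.

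Both chains of type I collagen, the most abundant fibrillar collagen of the body, lay below 0 in each mouse by smaller amounts. Col1a1 had -0.18, -0.06, -0.23 and -0.09, with a mean of -0.14 ± 0.08 (SD, n = 4, limma adjusted p = 0.552) and both of its probes below 0. Col1a2 had -0.47, -0.02, -0.10 and -0.15, with a mean of -0.19 ± 0.20 (SD, n = 4, limma adjusted p = 0.576). All 4 Col1a2 probes lay below 0, between -0.26 and -0.08, but mouse 1 carried much of the mean, which was -0.09 without it. Col5a2, a chain of the type V collagen that starts fibril assembly, had -0.41, -0.18, -0.04 and -0.12, with a mean of -0.19 ± 0.16 (SD, n = 4, limma adjusted p = 0.548). Mouse 1 was again the lowest, and the mean without it was -0.12. The 2 Col5a2 probes differed in size, at -0.33 and -0.06. The lowest array stood at -1.45 and was 1 of those of mouse 1, whose other arrays stood at -0.13, 0.04 and -0.11. The low value of mouse 1 thus came mostly from 1 array. Col3a1 and Col5a2 are neighbours on chromosome 1.

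The remaining fibrillar chains showed no common direction. Col5a1 and Col5a3, the partners of Col5a2, had means of -0.03 ± 0.14 and -0.13 ± 0.19 (SD, n = 4). Col11a1, a chain of the minor cartilage collagen XI, had the highest mean of the group, with 0.22, 0.62, -0.02 and 0.18 in mice 1 to 4. That gave 0.25 ± 0.27 (SD, n = 4), set mostly by mouse 2, and its turned mean of -0.11 was among the lowest of the group. Col2a1, the main cartilage collagen, averaged 0.09 ± 0.13, Col27a1 averaged 0.10 ± 0.16, and Col11a2 averaged -0.03 ± 0.08 (SD, n = 4 each). Each of these genes had at least 1 mouse on the other side of 0.

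**Figure D2:**
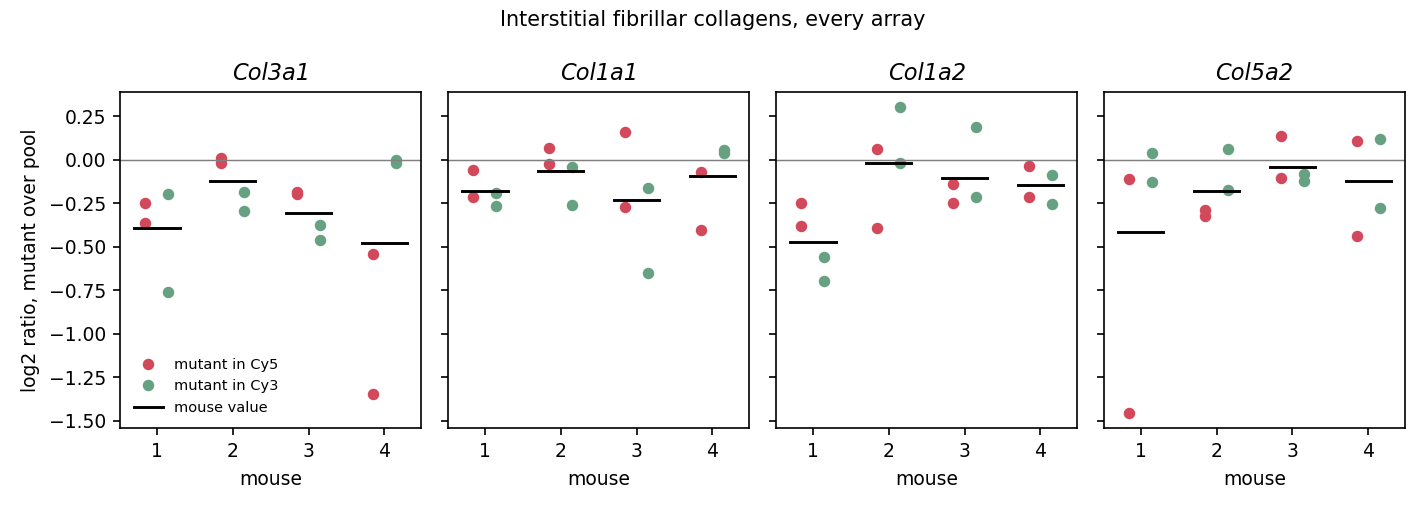
Log2 ratio of mutant over pool (vertical axis) on each array for Col3a1, Col1a1, Col1a2 and Col5a2, grouped by mouse (horizontal axis), with the dye of the mutant RNA shown by the marker. Arrays of both orientations mostly lie below 0, and the lowest single arrays are -1.35 for Col3a1 and -1.45 for Col5a2.

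The start regions of 2 interstitial collagens and 1 basement membrane collagen are shown. Col3a1 and Col1a2 stand for types III and I, and Col4a2 is shown because its start region is shared with Col4a1. Each is the RefSeq window of 250 bases before to 50 bases after the annotated start, in assembly GRCm38.p6, on the plus strand. Col3a1 lies at chr1:45311288-45311587, Col1a2 at chr6:4505368-4505667 and Col4a2 at chr8:11312555-11312854. Col1a1 and Col5a2 are named only. Capitals mark the letters CCAAT or TATAA, or their reverse complements ATTGG and TTATA.
Col3a1: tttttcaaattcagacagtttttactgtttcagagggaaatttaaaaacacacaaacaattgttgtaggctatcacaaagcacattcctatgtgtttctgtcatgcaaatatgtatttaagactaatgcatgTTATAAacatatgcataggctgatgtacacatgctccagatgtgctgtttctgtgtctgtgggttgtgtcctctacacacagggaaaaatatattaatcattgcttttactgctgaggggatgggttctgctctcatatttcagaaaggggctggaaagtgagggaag
Col1a2: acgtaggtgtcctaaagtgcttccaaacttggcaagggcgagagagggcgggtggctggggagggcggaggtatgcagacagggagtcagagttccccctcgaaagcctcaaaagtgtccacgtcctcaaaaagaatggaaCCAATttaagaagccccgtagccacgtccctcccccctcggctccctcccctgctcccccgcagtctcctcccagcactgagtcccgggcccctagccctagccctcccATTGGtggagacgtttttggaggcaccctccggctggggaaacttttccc
Col4a2: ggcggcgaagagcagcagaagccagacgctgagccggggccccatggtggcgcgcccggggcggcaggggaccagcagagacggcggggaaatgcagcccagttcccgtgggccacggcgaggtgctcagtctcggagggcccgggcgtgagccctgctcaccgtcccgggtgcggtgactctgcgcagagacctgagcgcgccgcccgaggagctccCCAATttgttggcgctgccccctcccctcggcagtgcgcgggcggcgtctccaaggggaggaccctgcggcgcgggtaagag
The Col3a1 window held TATAA 117 bases before the start, where it overlaps TTATA on the other strand. The Col1a2 window held CCAAT 109 bases before the start and ATTGG from the start base on, and the Col4a2 window held CCAAT 32 bases before the start. CCAAT on either strand was in 37.4% of all 32851 windows of this length and in 20 of 52 windows of 45 member genes (38.5%). TATAA on either strand was in 24.9% of all windows and 14 of 52 member windows (26.9%). Both shares were near the background. The member counts left out windows on 1 chromosome, which the background kept. These are matches of letters and not sites.

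The basement membrane genes had 7 of 10 tested genes below 0, with a median of -0.08, and none passed the test or an unadjusted p under 0.05. Their median was -0.05, -0.07, -0.09 and -0.04 in mice 1 to 4. The turned median was 0.02. Col4a1 and Col4a2 encode the most widespread type IV collagen chains and start 21 bases apart on opposite strands, so that the windows read for them overlap by 78 bases. Col4a1 had -0.07, -0.10, -0.23 and -0.03, with a mean of -0.11 ± 0.08 (SD, n = 4, limma adjusted p = 0.608) and 3 of 4 probes below 0. Col4a2 had -0.49, -0.12, -0.10 and 0.12, with a mean of -0.15 ± 0.25 (SD, n = 4, limma adjusted p = 0.656). The pair thus shared a direction in 3 mice, with the spread of Col4a2 set by mouse 1, without which its mean was -0.03. Turned, the means were 0.10 for Col4a1 and 0.09 for Col4a2.

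Among the laminins, the gamma 1 chain that most laminin trimers share lay below 0 in each mouse. Lamc1 had -0.03, -0.11, -0.44 and -0.16, with a mean of -0.19 ± 0.18 (SD, n = 4, limma adjusted p = 0.570). The low value in mouse 3 came from 1 of 3 probes, which stood at -1.64 there, and the mean was -0.10 without that mouse. Lama4, an alpha chain of vessel walls, averaged -0.15 ± 0.13 and was below 0 in every mouse. Lama5, the main alpha chain of the mature glomerular basement membrane, averaged 0.09 ± 0.06 and was above 0 in every mouse. Lamb2, its beta partner there, had 0.19, 0.25, -0.07 and 0.16, with a mean of 0.13 ± 0.14 (SD, n = 4, limma adjusted p = 0.601). The laminin chains thus lay on both sides of 0, and none differed from 0 by the test. Lama1 and Lamc3 averaged -0.01 ± 0.17 and -0.06 ± 0.13. Nid2, a nidogen that links laminin to type IV collagen, had -0.28, 0.14, -0.59 and -0.09, with a mean of -0.20 ± 0.31. Col18a1, whose core protein gives rise to endostatin, averaged 0.05 ± 0.13 (SD, n = 4 each).

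The 14 other collagens had 6 genes above 0 and 8 below, with a median of -0.02. Col14a1 and Col16a1, collagens that bind to the surface of fibrils, had unadjusted p under 0.05. Col14a1 had 0.19, 0.27, 0.37 and -0.02, with a mean of 0.20 ± 0.17 (SD, n = 4), but stood at -0.03 with the mutant in Cy5 and 0.44 with the mutant in Cy3. Col16a1 averaged 0.17 ± 0.10 (SD, n = 4), from -0.19 with the mutant in Cy5 and 0.53 with the mutant in Cy3. Its repeat arrays of 1 mouse and orientation differed by an SD of 1.67. Both thus had opposite signs in the 2 dye orientations, and the turned means were -0.23 for Col14a1 and -0.36 for Col16a1. Col6a1 averaged 0.03 ± 0.12 and Col6a2, its partner in the beaded filaments of type VI collagen, averaged -0.30 ± 0.47, with mouse 2 at -0.97. Col26a1 averaged -0.31 ± 0.81 and Col6a4 averaged 0.50 ± 0.95, the second over 3 mice. The rest (Col7a1, Col9a2, Col9a3, Col12a1, Col13a1, Col23a1, Col25a1 and Col28a1) had means from -0.09 to 0.18.

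Of the 11 MMPs tested, 8 lay below 0 and 3 above, with a median of -0.04. The gelatinases Mmp2 and Mmp9, which cut type IV collagen, averaged -0.04 ± 0.11 and -0.15 ± 0.36 (SD, n = 4). The Mmp9 value came from mouse 1, at -0.67, without which the mean was 0.03, and its 2 probes stood at -0.33 and 0.04. Mmp14, the membrane-bound MMP that activates the precursor of Mmp2, averaged 0.01 ± 0.19. The collagenases Mmp8 and Mmp13, which cut fibrillar collagen, had unadjusted p under 0.05 in opposite directions. Mmp8 had 0.40, 0.04, 0.20 and 0.26, with a mean of 0.22 ± 0.15 (SD, n = 4, limma adjusted p = 0.548). Mmp13 had -0.11, -0.17, -0.13 and -0.17, with a mean of -0.15 ± 0.03 (SD, n = 4, limma adjusted p = 0.548). Neither held its sign across the dyes: Mmp8 stood at -0.25 for mutant RNA in Cy5 and 0.69 for mutant RNA in Cy3, and Mmp13 at -0.33 and 0.04 in the same order. Their turned means were -0.47 for Mmp8 and -0.19 for Mmp13. Mmp12, macrophage elastase, had values in 3 mice that ran from -1.39 to 1.24. Mmp3, Mmp11, Mmp17, Mmp23 and Mmp24 had means from -0.15 to 0.07.

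Timp1, an inhibitor often induced in injured kidney, was above 0 in each mouse. It had 0.01, 0.43, 0.15 and 0.31, with a mean of 0.22 ± 0.18 (SD, n = 4, limma adjusted p = 0.548). It kept its sign in both orientations, at 0.34 with the mutant in Cy5 and 0.11 with the mutant in Cy3, and 3 of 16 arrays lay below 0. Timp2, which also takes part in Mmp2 activation, averaged 0.01 ± 0.24, and Timp4 averaged 0.02 ± 0.13. Timp3, the TIMP that stays bound to the matrix, averaged -0.03 ± 0.29 and is described with the differences between mice. Of the 6 ADAMTS genes, 3 lay above 0 and 3 below. Adamts12 had a mean of 0.76 ± 1.23, with repeat arrays that differed by an SD of 1.85, and a turned mean of -0.46. The others, which included the aggrecan-cutting Adamts1, had means between -0.06 and 0.09.

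The TGF-beta genes were split, with 3 of 6 above 0 and a median of 0.00. Tgfb1, the ligand most tied to fibrosis, had -0.29, -0.41, 0.19 and 0.41, so mice 1 and 2 lay below 0 and mice 3 and 4 above. Its mean was -0.02 ± 0.39 (SD, n = 4, limma adjusted p = 0.960). Tgfb2 averaged -0.09 ± 0.20, and Tgfb3 averaged 0.15 ± 0.12 and was above 0 in each mouse. Tgfbr2, the receptor kinase that binds the ligand first, had -0.60, 0.71, 0.31 and 0.06, a mean of 0.12 ± 0.55. That mean was -0.08 without mouse 2 and 0.36 without mouse 1, and it had opposite signs in the dye orientations, at -0.25 with the mutant in Cy5 and 0.49 with the mutant in Cy3. The turned mean of Tgfbr2 was -0.37. The coreceptor Tgfbr3 had values between -0.06 and 0.03 in the 4 mice. Tgfbrap1, a protein that binds TGF-beta receptors, averaged 0.02 ± 0.17 (SD, n = 4 each).

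Among the glycoproteins, small proteoglycans and lysyl oxidase, 2 of 6 lay above 0 and 4 below. Fn1, fibronectin, on which fibrils assemble, averaged -0.06 ± 0.13 (SD, n = 4), with 3 of 5 probes below 0, and stood at -0.01 without mouse 1. Sparc, a collagen-binding protein, averaged -0.12 ± 0.29, or -0.02 without mouse 1, and Bgn, the proteoglycan biglycan, averaged -0.10 ± 0.13. Dcn, decorin, which coats collagen fibrils, had 0.05, 0.69, 0.04 and 0.27, with a mean of 0.26 ± 0.31 (SD, n = 4, limma adjusted p = 0.574). Without mouse 2 that mean was 0.12, and the turned mean was -0.16. Lox, the enzyme that crosslinks collagen, averaged 0.22 ± 0.30, or 0.14 without mouse 2. Of its 3 probes, 1 stood at 0.99 with values in 3 mice only, and the others stood at 0.03 and -0.08. The Lox mean kept its sign under 15 of 19 alternatives. It was -0.02 with a value on all 16 arrays, -0.14 with extreme values kept and -0.22 turned. Postn, periostin, averaged -0.17 ± 0.46, and stood at -1.18 with the mutant in Cy5 and 0.84 with the mutant in Cy3. Its turned mean was -1.01.

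Signs differed between the dye orientations for many members. The mean had opposite signs in the 2 orientations for 34 of 67 members (50.7%), beside 59.8% of all rows, and for 4 of the 6 with an unadjusted p under 0.05. Col3a1 and Timp1 were the other 2. Turned, the opposite signs fall on the 33 other members (49.3%), beside 40.2% of all rows, so these shares rest on the inferred direction. Of 27 members with more than 1 probe, 15 had all probes on the same side of 0. The median SD between repeat arrays was 0.224 for the members and 0.257 for all rows.

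**Figure D3:**
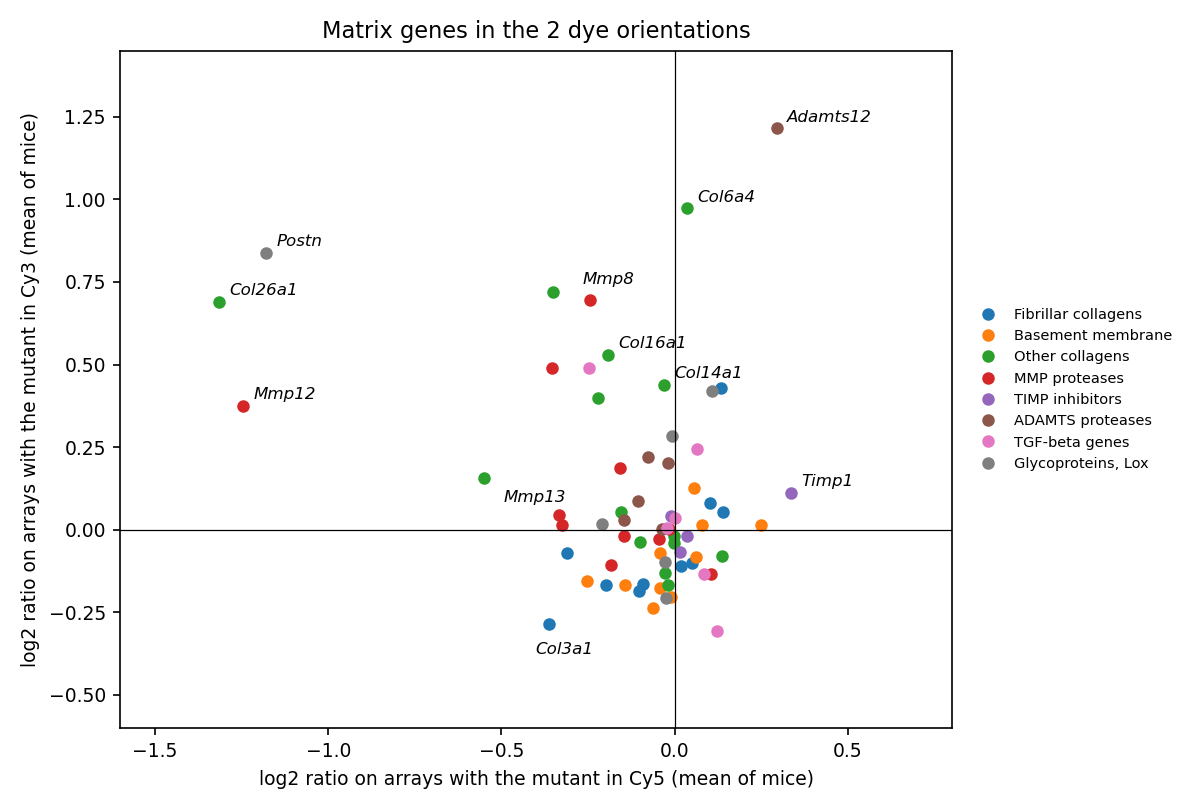
Mean log2 ratio on arrays with mutant RNA in Cy5 (horizontal axis) against that on arrays with mutant RNA in Cy3 (vertical axis), 1 point per member gene, with each value a mean over mice. Points in the upper left and lower right fields are the 34 genes of opposite sign, and Col3a1 (-0.36 and -0.29) and Timp1 (0.34 and 0.11) lie outside them.

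Some members varied more among the 4 mutant mice than they differed on average from the pool. The question here was whether mice differ by more than their own arrays do, by limma's F-test with a dye term. With probes averaged per gene, 0 of 65 members passed an adjusted p of 0.05, beside 0.189% of all rows. At an unadjusted p under 0.05 stood 7 of 65 (10.8%), near the 11.2% of all rows. Timp3 had -0.34, 0.30, -0.18 and 0.11 in mice 1 to 4, with an SE of 0.08 for each mouse and an adjusted p of 0.0598. Sparc had -0.42, 0.24, -0.28 and -0.01 (limma adjusted p = 0.0852), so mouse 1 was lowest and mouse 2 highest in both genes. Dcn was highest in mouse 2, with 0.05, 0.69, 0.04 and 0.27 (limma adjusted p = 0.0663). Mmp14 ran the other way, with 0.24, -0.15, -0.13 and 0.10 (limma adjusted p = 0.269). The other 3 with an unadjusted p under 0.05 were Timp1, Tgfb2 and Tgfbr2.

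Tested probe by probe, 2 of the 4 Timp3 probes (limma adjusted p = 0.0138 and 0.0203) and 1 of the 3 Sparc probes (limma adjusted p = 0.0421) passed, beside 0.243% of all probes. The third Timp3 probe, with -0.45, 0.42, -0.21 and -0.07, was also lowest in mouse 1 and highest in mouse 2. The fourth had 0.13, -0.07, -0.08 and -0.03 and lacked that order. The order with mouse 1 lowest and mouse 2 highest was picked after Timp3 and Sparc were seen to have it. At an unadjusted p under 0.05, Tgfbr2 and Timp1 held it too, which makes 4 of 65 members (6.15%), beside 3.17% of all rows, and that choice partly fixes the member share. Marker medians of the proximal tubule followed a like order, at 0.00, 0.32, 0.10 and 0.25 in mice 1 to 4. Their part in the result was not tested.

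**Figure D4:**
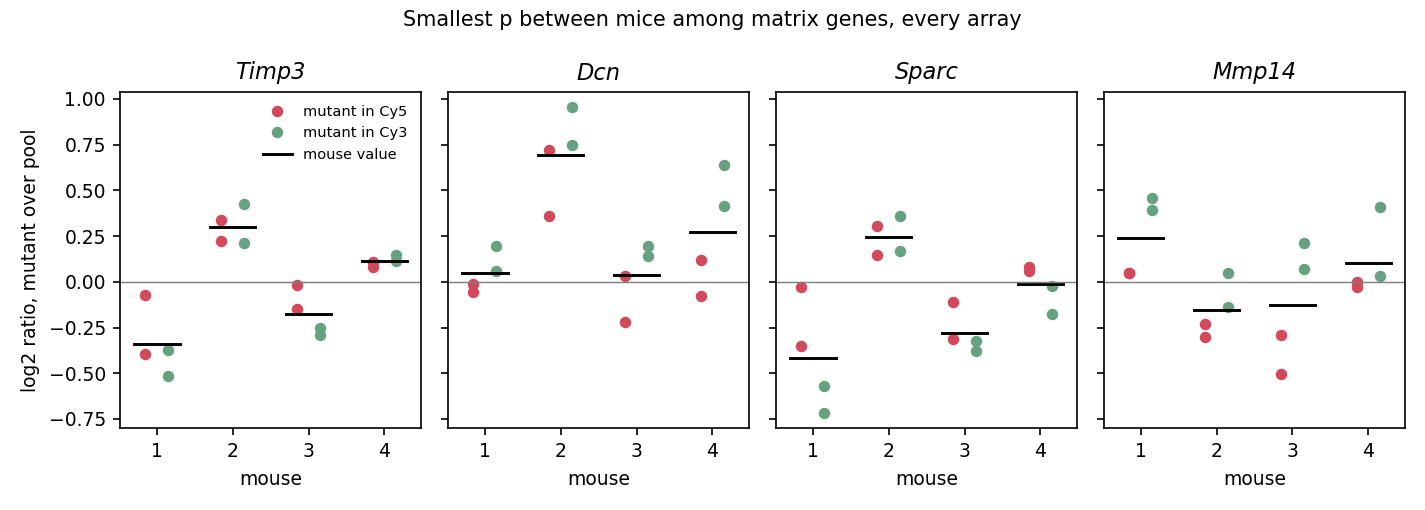
Log2 ratio of mutant over pool (vertical axis) on each array for Timp3, Dcn, Sparc and Mmp14, grouped by mouse (horizontal axis), with the dye of the mutant RNA shown by the marker. Mouse 2 stands highest for Timp3 (0.30), Dcn (0.69) and Sparc (0.24) and lowest for Mmp14 (-0.15).

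Genes that act with the members were measured on the same arrays, and none passed the adjusted test. The collagen processing list had 7 of 23 measured genes above 0 and 16 below, a median of -0.04, and 2 of 23 at an unadjusted p under 0.05 (8.70%, beside the 9.04% of all rows), both below 0. Serpinh1, the collagen chaperone of the endoplasmic reticulum, averaged -0.21 ± 0.13 and was below 0 in all 4 mice (turned mean 0.05), and P4ha2, a prolyl hydroxylase subunit, averaged -0.19 ± 0.15 (SD, n = 4; turned mean 0.20). Other matrix components had 12 of 31 above 0 and 19 below, a median of -0.03, and 1 at an unadjusted p under 0.05 (3.23%), below 0. Aspn, asporin, averaged -0.21 ± 0.18, and Fbln5, a fibulin of elastic fibres, averaged -0.18 ± 0.15, with turned means of 0.15 and 0.17. The TGF-beta pathway beyond the members had 7 of 21 above 0 and 14 below, with 1 gene at an unadjusted p under 0.05 in each direction (9.52% in all). Smad3, which carries the TGF-beta signal to the nucleus, averaged -0.18 ± 0.11, and the inhibitory Smad6 averaged 1.46 ± 1.07 over 3 mice (turned mean -1.04). Integrins and other matrix receptors had 11 of 17 above 0 and 6 below, with 2 at an unadjusted p under 0.05 (11.8%), both above 0. Ilk, a kinase at integrin tails, averaged 0.31 ± 0.30, and Cd151, a partner of laminin-binding integrins, averaged 0.29 ± 0.19. The plasmin and other protease list had 14 of 17 above 0 and 3 below, with 2 at an unadjusted p under 0.05 (11.8%), both above 0. Mep1a, a brush border metalloprotease, averaged 0.27 ± 0.21, and Adam15 averaged 0.26 ± 0.20.

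Markers of the cells that make or border the matrix were set beside the collagens. The fibroblast and myofibroblast list had 6 of 13 measured genes above 0 and 7 below, with a median of -0.01. Its median was 0.02, -0.03, -0.02 and -0.11 in mice 1 to 4, and no gene of it stood at an unadjusted p under 0.05. Its 2 genes with the smallest p were Fbln5 and Acta2, the smooth muscle actin of myofibroblasts, at -0.19 ± 0.31 (SD, n = 4). Endothelial markers had a median of 0.02 over 14 genes, with Cdh5, vascular cadherin, at 0.34 ± 0.30 and Tek, the angiopoietin receptor, at -0.87 ± 0.88 over 3 mice. Macrophage markers had a median of -0.02 over 11 genes, with the complement subunits C1qb at 0.27 ± 0.17 and C1qc at -0.12 ± 0.07. Only 3 podocyte markers of 13 were measured, among them Podxl at 0.23 ± 0.21 and Ptpro at -0.11 ± 0.14.

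Both lists of tubule markers had medians above 0. Like the other lists, they were chosen with earlier results of these data known. The proximal tubule list had 9 of 11 genes above 0 and 2 below, a median of 0.21, and 6 at an unadjusted p under 0.05 (54.5%, beside 9.04% of all rows), 5 of them above 0. Turned, the median was 0.05 and 2 of 11 stood at that p (18.2%, beside 20.2% of all rows). Slc27a2, a fatty acid transporter and acyl-CoA synthetase, averaged 0.41 ± 0.23, and the protease Napsa averaged 0.31 ± 0.11 (SD, n = 4), with turned means of 0.03 and -0.03. The 2 genes below 0 were Slc34a1, at -0.20 ± 0.09, and Slc13a3, at -0.11 ± 0.24 (SD, n = 4). Slc34a1 was below 0 in every mouse and was 1 of the 6 at an unadjusted p under 0.05. The list of the loop of Henle and distal nephron had 5 of 7 above 0 and 2 below, a median of 0.18, and 3 at an unadjusted p under 0.05 (42.9%), all above 0, beside the 5.83% of all rows that were higher. Its turned median was -0.01, with 1 of 7 at that p (14.3%). Slc12a1, the salt transporter of the thick ascending limb, averaged 0.56 ± 0.24, and Aqp2, the water channel of the collecting duct, averaged 0.46 ± 0.25, with turned means of 0.10 and -0.05. The 2 genes of this list below 0 were Umod, at -0.15 ± 0.20, and Slc4a1, at -0.04 ± 0.11 (SD, n = 4). None of these genes passed the adjusted test. The part of tubule RNA in the ratios of the collagens was not tested.

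**Figure D5:**
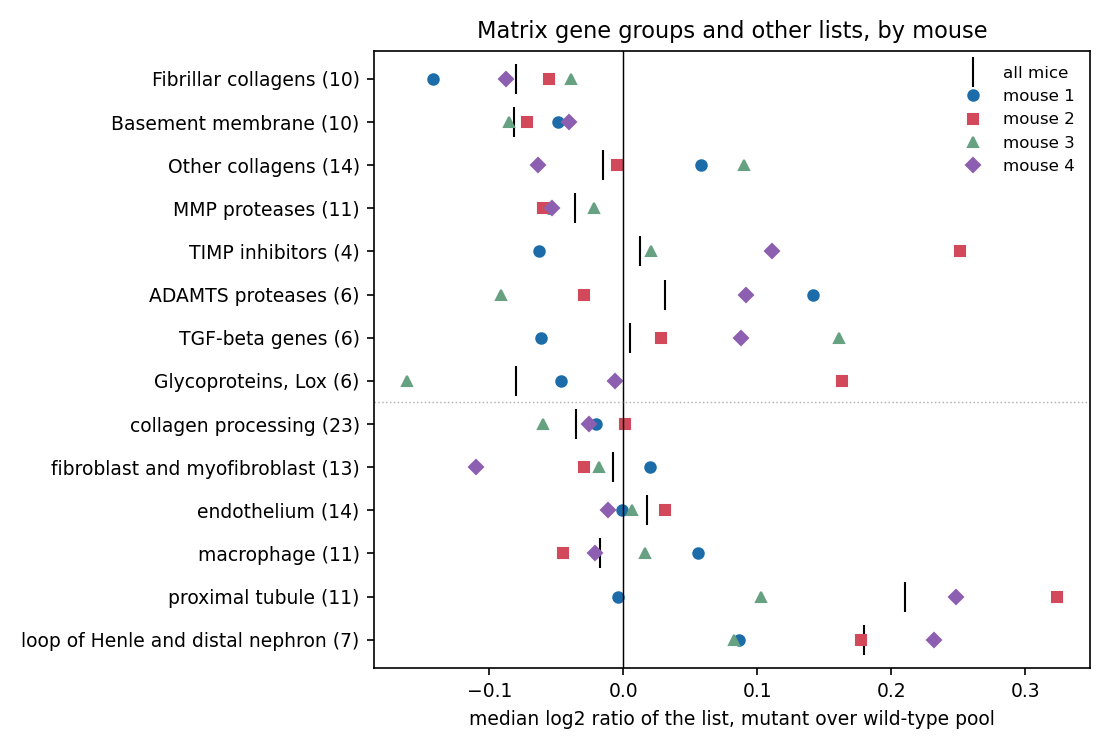
Median log2 ratio of mutant over pool (horizontal axis) in each mouse, with rows for the groups of member genes and some other gene lists. Row labels give the number of genes measured. The other lists drawn are collagen processing and the markers of all cell types but podocytes. The fibrillar collagens lie between -0.14 and -0.04 and the basement membrane genes between -0.09 and -0.04, and the proximal tubule list has an overall median of 0.21.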

How the data were processed

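The authors deposited 1 ratio per probe and array, used here as log2 values. The sources used here do not state how the ratios were normalised or background-corrected, nor their log base or direction. Base and direction were inferred from spots at a shared extreme value. Values over 10 in size were treated as missing (6 member spots of 510). Of 20355 probes, 14030 had 1 platform symbol, 5 several and 6320 none. For 13994 probes the symbol was taken by gene identifier from RefSeq (GRCm38.p6), whether or not it changed, and 36 probes kept the platform symbol. Of the 113 member probes, 96 (85.0%) had a value on all 16 arrays, beside 88.9% of all probes.

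Arrays were centred on their medians and averaged within each orientation, then over both orientations, for each mouse. A probe needed both orientations in 3 mice, and probes of a symbol were averaged. The 4 mice were tested against 0 with limma 3.58.1 (R 4.3.3, two-sided, Benjamini-Hochberg over 16140 rows). For differences between mice, limma's F-test was run over the single arrays with a dye term (15856 rows). For mouse 1 the title and the source name carry different animal numbers, and the mouse identifier was used. Members and lists were chosen with earlier results of these data known. Genes were named by textbook role, by an unadjusted p under 0.05, by the 4 smallest p between mice or a call there, and by the 2 smallest p of each other list. The remaining members are given for completeness. Alternatives covered centring, scaling, probes, filters, extreme values, dye, repeats, a random block (statmod 1.5.0), medians, the prior, an unmoderated test, reading as Cy5 over Cy3, and each mouse left out. On simulated data for the comparison of mutant and pool over 16140 rows, 55.2% of changes of 0.5 (log2), 89.6% of 1 and 100% of 2 were recovered. Between mice, also over 16140 rows and with the change put in mouse 1 alone, the shares were 16.4%, 59.7% and 90.9%. The simulated rows were independent and normal, with each row's own spread and no shared error of the pool or dye effect. These shares may therefore not hold for the real tests.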

Additional observations from a re-analysis of the deposited data

Results flagged for a closer look

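In 2 of 107 values checked, 1 mouse stood apart from the other 3 by more than Dixon's 95% critical value for 4 samples, and chance alone gives this in about 5% of groups. For Col9a2, a chain of a cartilage collagen, mouse 3 was highest at 0.0928, while mice 1, 2 and 4 stood at -0.16, -0.16 and -0.14. For Mmp24, a membrane-bound metalloproteinase, mouse 2 was highest at 0.18, while mice 1, 3 and 4 stood at -0.06, -0.09 and -0.05.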

How the results depend on the processing

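No member differed from the pool at the adjusted threshold under any of the 19 alternatives. Rows of the whole array called, 0 as reported, numbered 12 if read as Cy5 over Cy3 and 221 with the mouse as a random block. They numbered 3 with the mutant in Cy5 alone and 1 with the mutant in Cy3 alone. With the random block, Col3a1 and Timp1 had a limma adjusted p of 0.0853. The consensus correlation within mice was 0.0355 in that fit, so arrays of 1 RNA entered it almost as separate replicates. Its p-values and its count of rows called therefore do not rest on the mouse as the replicate. Of 67 members, 6 stood at an unadjusted p under 0.05 as reported (8.96%, beside 9.04% of all rows). That number was 12 if read as Cy5 over Cy3 (17.9%, beside 20.2% of all rows). It was 11 with the mutant in Cy3 alone, 2 of 65 with repeat 1 alone, and 4 to 6 when 1 mouse was left out. With each probe on its own it was 11, where 109 member probes were tested. The share of all rows was not taken for these last settings, so no rise or fall among the members can be read from them. Between mice, 2 member genes were called with each probe on its own, against 0 with probes averaged, and 13 against 7 had an unadjusted p under 0.05. A gene with several probes was tested several times in the first setting, so these counts are not on the same footing. Over all rows the calls between mice, 30 as reported, were 16 scaled, 48 with each probe on its own, 51 with a value on all 16 arrays, 2 if read as Cy5 over Cy3, and 5 to 13 when 1 mouse was left out.

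The basement membrane median, -0.08 as reported, was -0.0556 with a value on all 16 arrays, 0.0235 if read as Cy5 over Cy3, -0.0266 with the mutant in Cy5 alone, -0.120 in Cy3 alone, -0.0323 with repeat 1 alone, and -0.0952 to -0.0606 when 1 mouse was left out. The fibrillar median, also -0.08, was 0.0242 if read as Cy5 over Cy3, -0.0349 with the mutant in Cy5 alone, -0.0451 with repeat 2 alone, and -0.102 to -0.0412 when 1 mouse was left out. The median of all members, -0.02, was 0.0136 with the mutant in Cy3 alone and -0.0403 with repeat 1 alone. The cause was not tested. Of 24 genes followed, Col3a1, Col1a2, Col5a2, Lamb2, Lamc1 and Timp1 kept their sign under every alternative, but the smallest sizes were near 0 for Lamc1 (-0.0098) and Col1a2 (-0.013) if read as Cy5 over Cy3 and for Lamb2 (0.014) with the mutant in Cy3 alone. No paired analysis was possible because there is 1 group of mice, and the repeat numbers name arrays of 1 RNA. Signal over background is unknown, so probes at background could not be left out.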

Other observations

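Probes that failed the filter on values still held some. Lama3, an epithelial laminin chain, had a log2 ratio in both orientations in mouse 2 only, at 1.76. Mmp7, matrilysin, had -0.39 in mouse 2 and -0.61 in mouse 4. A second Tgfb1 probe had 0.47 in mouse 2 and 0.74 in mouse 3, and a second Timp1 probe had 0.74 in mouse 3.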
